A study of Mus musculus with 10 samples.

Results

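The neuromuscular receptor and calcium handling genes comprise 10 genes that skeletal muscle uses to receive the nerve signal and to turn it into contraction. They were taken from the table of 16697 gene entries by symbol, and all 10 are listed there. Of these, 3 are grouped here as embryonic, all from the muscle acetylcholine receptor (Chrna1, Chrng and Chrnd). A further 3 are typical of mature muscle (Ryr1, Atp2a1 and Ckm), and the other 4 are Chrnb1, Casq2, Stac3 and Smyd1. Only Chrng is particular to the embryonic receptor, since the subunits of Chrna1, Chrnd and Chrnb1 are also part of the mature receptor. They were followed in RNA sequencing of mouse liver, in normal liver (NL, n = 4), in c-MYC-induced liver tumors (c-MYC, n = 3) and in tumors that also received FOXO1AAA (c-MYC/FOXO1AAA, n = 3).

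Tumors were made by hydrodynamic tail vein injection, which pushes plasmids into hepatocytes, with Sleeping Beauty transposase to insert them into the genome. FOXO1AAA is a MYC-tagged, constitutively active FOXO1 whose AKT phosphorylation sites are mutated, carried on the pT3-EF1α backbone. The c-MYC mice received the empty pT3 vector in its place, and one passage of the study names MCL1 as a further plasmid of these controls while others do not. The labels give the genotype of all samples as WT and the strain as C57BL/6, whereas the extraction text and the methods name FVB, and animal age is not given in the labels. The study asked with these libraries whether active FOXO1 alters the molecular features of c-MYC tumors.

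At the neuromuscular junction, acetylcholine released by the nerve opens a receptor built from α, β, δ and either γ or ε subunits. The γ subunit is used before birth and in denervated muscle, and the ε subunit replaces it at the mature endplate. The resulting depolarization is read by a voltage sensor in the T-tubule, which opens the ryanodine receptor RYR1 of the sarcoplasmic reticulum so that stored calcium reaches the sarcomere. SERCA pumps return the calcium, calsequestrin buffers it inside the store, and creatine kinase replenishes ATP. Hepatocytes are not a known site of this machinery.

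The myogenic factors MYOD1 and MYOG bind the E-box CANNTG, in muscle often as CAGCTG. Printed here are the promoters of Chrna1, Chrng, Atp2a1 and Ckm, the 4 of 8 members with an entry that held CAGCTG. Those of Chrnb1, Casq2, Ryr1 and Smyd1 lacked CAGCTG and are not printed. Each run covers 250 bases before and 50 bases after the start site (RefSeq, GRCm38.p6), written 5′ to 3′ on the strand of the gene, with each CANNTG in capitals. Chrna1 lies at chr2:73580289-73580588 on the minus strand, Chrng at chr1:87205561-87205860 on the plus strand, Atp2a1 at chr7:126463024-126463323 on the minus strand and Ckm at chr7:19410844-19411143 on the plus strand.
Chrna1: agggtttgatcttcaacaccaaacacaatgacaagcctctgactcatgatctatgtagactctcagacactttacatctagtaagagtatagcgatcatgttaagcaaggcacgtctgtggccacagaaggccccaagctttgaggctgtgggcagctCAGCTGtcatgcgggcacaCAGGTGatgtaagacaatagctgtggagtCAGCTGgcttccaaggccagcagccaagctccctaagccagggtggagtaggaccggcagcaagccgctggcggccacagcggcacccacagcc
Chrng: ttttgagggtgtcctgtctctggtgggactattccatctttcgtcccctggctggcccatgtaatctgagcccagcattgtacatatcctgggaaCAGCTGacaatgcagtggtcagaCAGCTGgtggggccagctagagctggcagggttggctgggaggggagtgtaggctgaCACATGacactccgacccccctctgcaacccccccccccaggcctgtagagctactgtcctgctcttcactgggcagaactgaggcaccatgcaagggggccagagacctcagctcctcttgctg
Atp2a1: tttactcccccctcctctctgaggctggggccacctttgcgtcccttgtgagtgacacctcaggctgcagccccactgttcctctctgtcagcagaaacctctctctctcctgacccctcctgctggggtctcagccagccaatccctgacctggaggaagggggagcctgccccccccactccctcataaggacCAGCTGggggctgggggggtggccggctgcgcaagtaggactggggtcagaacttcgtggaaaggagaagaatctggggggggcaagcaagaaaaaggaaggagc
Ckm: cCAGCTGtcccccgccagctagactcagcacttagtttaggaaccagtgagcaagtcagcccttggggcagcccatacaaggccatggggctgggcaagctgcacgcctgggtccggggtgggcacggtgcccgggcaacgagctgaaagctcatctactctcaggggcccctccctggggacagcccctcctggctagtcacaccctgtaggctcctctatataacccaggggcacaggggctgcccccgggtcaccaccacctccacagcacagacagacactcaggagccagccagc
CAGCTG, which reads the same on both strands and is one form of CANNTG, occurred 2 times each for Chrna1 and Chrng and 1 time each for Atp2a1 and Ckm. Thus 4 of the 8 members with an entry held it, against 16.3% of 32851 promoters of this length. CANNTG was in 6 of the 8 and in 72.3% of all promoters. Ryr1 and Smyd1 held neither. TGTTTAC, the forkhead motif bound by FOXO factors, was searched on both strands and was in 0 of the 8 members and in 3.65% of all promoters. A match is a description of the letters and not a binding site. Chrnd and Stac3 were not matched.

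The deposited values are log2 FPKM, that is fragments scaled to gene length and an adjusted library size, with a small prior count added. Because of this prior, a gene without reads sits at a fixed low FPKM, so the whole reads recovered from the table are given beside low values. The libraries held 13123717 to 20547746 recovered reads. The adjusted size was these reads times a scaling factor. That factor was 0.6486 to 0.6838 in NL, 1.256 to 1.295 in c-MYC and 1.454 to 1.502 in c-MYC/FOXO1AAA. The same number of reads thus gives a higher FPKM in NL than in tumors, and reads alone do not compare levels between groups. Foxo1 had 11907 to 21643 reads in the c-MYC/FOXO1AAA libraries, against 821 to 1053 in c-MYC and 529 to 685 in NL, so the libraries match this label. Mouse Myc had 16 to 32 reads in c-MYC and 80 to 369 in NL. Whether the injected c-MYC is counted under this gene is not given in the sources used here, so Myc does not check the labels. Each library is treated as a replicate of its group. The labels do not say more about the animals, so p-values measure the spread between these samples. A group in which every library sits at the floor shows no spread, which narrows the SE and lowers the p-value of that gene. This holds for Chrna1 and Chrnd in NL and c-MYC, and for Chrng in NL. In bulk tissue, fewer cells of a type and less RNA per cell cannot be told apart.

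The question of the first comparison was what FOXO1AAA adds to c-MYC tumors. All 3 embryonic receptor subunits were detected in every c-MYC/FOXO1AAA library and were at or near 0 reads elsewhere. Ryr1, Atp2a1 and Casq2 were also far higher than in c-MYC, whereas Ckm, Chrnb1, Stac3 and Smyd1 did not pass the test. A limma model with a test for changes above 1.5-fold and Benjamini-Hochberg adjustment over 14017 genes called 4 of the 10 members higher than in c-MYC tumors and 0 lower. Over all genes tested, 15.9% were called higher and 12.7% lower. The 4 were Chrng, Ryr1, Atp2a1 and Casq2, which met the filter on low values (FPKM of 1 in 3 libraries) only through the c-MYC/FOXO1AAA libraries where they are high, so a difference was built into their entry. Ckm also needed those libraries. Chrna1 and Chrnd did not meet the filter and were left out of this test. Without that filter both were called as well, which made 6 of 10 members against 17.2% of all genes.

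**Figure D1:**
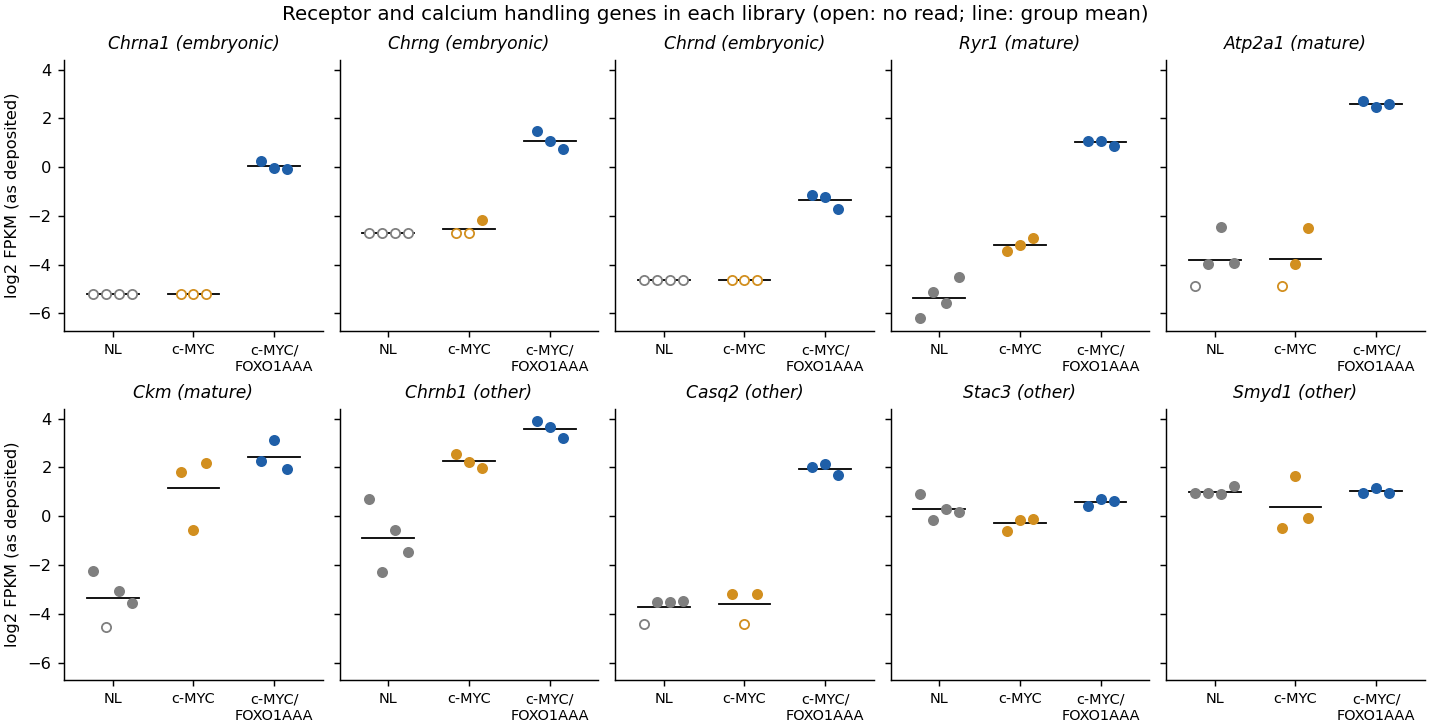
Deposited log2 FPKM of each member in each library, by group. Open circles mark libraries without a read of the gene, which sit at the floor set by the prior count, and lines mark group means. Chrna1, Chrng, Chrnd, Ryr1, Atp2a1, Casq2, Chrnb1 and Stac3 lay above every c-MYC library in all 3 c-MYC/FOXO1AAA libraries, while Ckm and Smyd1 overlapped. Of all genes tested, 32.7% lay above c-MYC in this way. Chrna1 and Chrnd were not tested, and Chrng, Ryr1, Atp2a1 and Casq2 met the filter only through the c-MYC/FOXO1AAA libraries.

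Chrna1 encodes the α subunit, which carries the acetylcholine binding site. It is on GRCm38 chromosome 2 from 73563215 to 73580338 (minus strand, GENCODE M21). Chrna1 had 126, 125 and 80 reads in the 3 c-MYC/FOXO1AAA libraries (FPKM 1.19, 0.981 and 0.957) and 0 reads in each of the other 7 libraries. The groups were thus fully apart. Against 3 reads allowed over the c-MYC group, Chrna1 was at least 82.7-fold higher, and against NL at least 58.4-fold higher. These bounds cover counting error only. Adjusted p without the filter (limma) was 2.94e-07 against c-MYC and 4.2e-08 against NL.

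Chrng and Chrnd encode the γ and δ subunits and are neighbors on chromosome 1, in the same direction, with 4586 bases and no annotated gene between them. Chrnd runs from 87190607 to 87200070 and Chrng from 87204657 to 87212694. Chrng had 50, 45 and 23 reads in c-MYC/FOXO1AAA (FPKM 2.76, 2.09 and 1.66). It had 1 read in c-MYC, in c-MYC 3, and 0 reads in NL. From the reads the ratio to c-MYC was 88.5 (95% exact counting interval 15.6 to 3520), and Chrng was at least 20.8-fold higher than in NL. On the deposited scale the log2 fold change was 3.62 ± 0.30 (SE) against c-MYC, with an adjusted p of 9.3e-06 (limma). Chrnd had 30, 34 and 15 reads in c-MYC/FOXO1AAA (FPKM 0.457, 0.430 and 0.302) and 0 reads in all other libraries, which put it at least 19.7-fold above c-MYC and at least 13.9-fold above NL. Without the filter its adjusted p was 2.41e-05 against c-MYC (limma).

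Chrnb1, the β subunit on chromosome 11 from 69784036 to 69795943, differed from its partners in being present in all groups. In NL its FPKM was 1.65, 0.203, 0.673 and 0.365, with NL 1 the highest at 38 reads. It was 5.92, 4.61 and 3.89 in c-MYC, above every NL library, and 14.7, 12.5 and 9.16 in c-MYC/FOXO1AAA, above every c-MYC library. Chrnb1 rose from NL to c-MYC by a log2 fold change of 3.15 ± 0.58 (SE, adjusted p = 0.00192, limma), and by 3.69 without NL 1. Between c-MYC/FOXO1AAA and c-MYC the log2 fold change of 1.33 (95% interval -0.04 to 2.70) did not pass (adjusted p = 0.345, limma). It passed with voom on the recovered reads (adjusted p = 0.0202) and in a fit of the 2 groups alone (adjusted p = 0.022), and over its 21 alternatives the adjusted p ranged from 0.0202 to 0.576. All 4 subunits were highest in c-MYC/FOXO1AAA 1 and lowest in c-MYC/FOXO1AAA 3.

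Chrne, the ε subunit of the adult receptor, was not detected beside them. It had 1, 6, 6 and 0 reads in NL, 1, 2 and 2 in c-MYC, and 0 reads in each c-MYC/FOXO1AAA library. In c-MYC/FOXO1AAA, Chrng had 118 reads in all and Chrne 0. Per length, Chrng was at least 80.5-fold above Chrne there, or at least 22.9-fold if the longest annotated transcripts are used for both. As a share of the summed FPKM of Chrng and Chrne, Chrng made up 96.6% ± 0.833 (SD, n = 3), a value held below 100% by the prior alone. In NL and c-MYC the pair had 13 and 6 reads, so a share there would mostly show the prior and is not given.

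The genes that assemble the endplate were mixed. Of 12 such genes, 10 were listed and 7 tested, of which FOXO1AAA tumors had 2 called higher and 1 lower against c-MYC. Of all genes tested, 15.9% were called higher and 12.7% lower. The median log2 fold change was 0.10, beside 0.03 for all genes tested. Dok7, the activator of the receptor-clustering kinase MuSK, had 109, 193 and 56 reads against 1 read in c-MYC, a ratio of 268 (95% exact counting interval 47.9 to 10600), and passed the test (adjusted p = 1.89e-06, limma). Rapsn, which anchors the receptor, rose by 3.98 ± 0.58 on the log2 scale (SE, adjusted p = 0.00048, limma). Dok7 and Rapsn met the filter only through the c-MYC/FOXO1AAA libraries, so a difference was built into their entry. Agrn, the nerve-derived clustering signal that many epithelia also make, went the other way: it fell from an FPKM of 38.6 ± 6.19 (SD, n = 3) in c-MYC tumors to 13.6 ± 1.30 (SD, n = 3) with FOXO1AAA (adjusted p = 0.000721, limma). Musk itself was not listed.

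The neuronal nicotinic subunits that were listed had their highest level in NL, unlike Chrna1, Chrng, Chrnd and Chrnb1. Of 11 genes, 3 were listed, and all 3 were called lower in c-MYC than in NL, where 23.6% of all genes tested were called lower. Chrna2 had 78 to 138 reads in NL and 1 to 6 in c-MYC, and Chrna4 had 52 to 149 in NL and 1 or 2 in c-MYC. Chrnb2, the common β partner of these subunits, had 36 to 70 reads in NL, 2 to 7 in c-MYC and 23 to 31 in c-MYC/FOXO1AAA. It was the 1 of the 3 called higher against c-MYC when FOXO1AAA was present (log2 fold change 1.84 ± 0.36 SE, adjusted p = 0.0123, limma), and remained below NL. In the comparison with c-MYC, 15.9% of all genes tested were called higher. All 3 were also called lower in c-MYC/FOXO1AAA than in NL, beside 26.6% of all genes tested.

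Ryr1, the calcium release channel on chromosome 7 from 29003344 to 29125179, showed a step in each comparison. It had 1, 3, 2 and 5 reads in NL, 24, 29 and 36 in c-MYC, and 801, 962 and 553 in c-MYC/FOXO1AAA. The corresponding FPKM was 0.0136 to 0.0440, 0.0929 to 0.135 and 1.84 to 2.12. No group overlapped another. Its log2 fold change was 4.19 ± 0.42 (SE, adjusted p = 3.15e-05, limma) against c-MYC and 6.37 ± 0.39 (SE, adjusted p = 1.78e-07, limma) against NL. For c-MYC versus NL it was 2.18 ± 0.39 (SE, adjusted p = 0.00296, limma), a call that was lost with a pseudocount of 1 (adjusted p = 1.0) or 0.1 (adjusted p = 0.344) and ranged from 0.000107 to 1.0 over its 20 alternatives. Of the exonic bases of Ryr1, 4.19% are shared with genes on the other strand, and whether the authors counted by strand is not stated.

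Ryr2, the heart ryanodine receptor, had 53, 63 and 32 reads in c-MYC/FOXO1AAA, 0 in c-MYC and 2 in NL. Ryr1 therefore made up 94.3% ± 0.350 (SD, n = 3) of the summed FPKM of Ryr1 and Ryr2 in c-MYC/FOXO1AAA. In c-MYC, Ryr2 had no read, so a share there would be set by the prior and is not compared. Ryr3 was not listed.

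Atp2a1 encodes SERCA1, the calcium pump of fast fibers. It had 0, 1, 5 and 1 reads in NL and 0, 2 and 9 in c-MYC, groups that overlapped (log2 fold change 0.02, 95% interval -1.34 to 1.38, adjusted p = 1.0, limma). In c-MYC/FOXO1AAA it had 559, 576 and 408 reads (FPKM 6.56, 5.58 and 6.02). The log2 fold change against c-MYC was 6.38 ± 0.66 (SE, adjusted p = 2.8e-05, limma), the largest of the 8 members tested. Atp2a1 lies on chromosome 7 from 126445858 to 126463108, and 21.9% of its exonic bases are shared with Rabep2 on the other strand. Rabep2 also rose against c-MYC (log2 fold change 1.42 ± 0.17 SE, adjusted p = 0.00148, limma). Rabep2 had 104 to 140 reads in NL, 97 to 136 in c-MYC and 290 to 502 in c-MYC/FOXO1AAA. After scaling, its mean FPKM was 5.761 in NL, 2.885 in c-MYC and 7.692 in c-MYC/FOXO1AAA. Rabep2 was called lower in c-MYC than in NL (adjusted p = 0.0263, limma). Its part in the Atp2a1 counts was not tested.

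The widely expressed pump gene Atp2a2 stayed the main SERCA gene. The FPKM of Atp2a2 was 70.5 ± 8.96 (SD, n = 3) in c-MYC tumors against 83.4 ± 8.26 (SD, n = 3) after FOXO1AAA, with a log2 fold change of 0.25 (95% interval -0.03 to 0.52) that did not pass (adjusted p = 1.0, limma). Atp2a3 rose (log2 fold change 2.61 ± 0.35 SE, adjusted p = 0.0005, limma). Atp2a1 made up 6.58% ± 0.544 (SD, n = 3) of the summed FPKM of the 3 pump genes in c-MYC/FOXO1AAA, with 6.41%, 6.15% and 7.19% in the single libraries. In NL it was 0.167% ± 0.119 (SD, n = 4), and c-MYC tumors had 0.130% ± 0.111 (SD, n = 3), values that include the prior for at most 9 reads of Atp2a1 in a library. The groups did not overlap, and the exact 2-sided permutation p was 0.10 against c-MYC and 0.057 against NL, the smallest these group sizes allow.

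Casq2 encodes calsequestrin 2, the calcium buffer of heart and slow fibers, on chromosome 3 from 102086415 to 102146514. It had 0, 1, 1 and 1 reads in NL, 3, 0 and 3 in c-MYC, and 255, 333 and 157 in c-MYC/FOXO1AAA (FPKM 4.10, 4.41 and 3.18). Its log2 fold change against c-MYC was 5.55 ± 0.42 (SE, adjusted p = 3.39e-06, limma). The ratio of reads to NL was 131 (95% exact counting interval 44.8 to 638). Casq1, the form of fast fibers, also rose (log2 fold change 3.56 ± 0.47 SE, adjusted p = 0.000269, limma), with 78, 64 and 43 reads. Casq2 accounted for 73.2% ± 4.46 (SD, n = 3) of the summed FPKM of both genes in c-MYC/FOXO1AAA. The pair had 13 reads in c-MYC and 5 in NL, too few for a share that is not set by the prior.

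**Figure D2:**
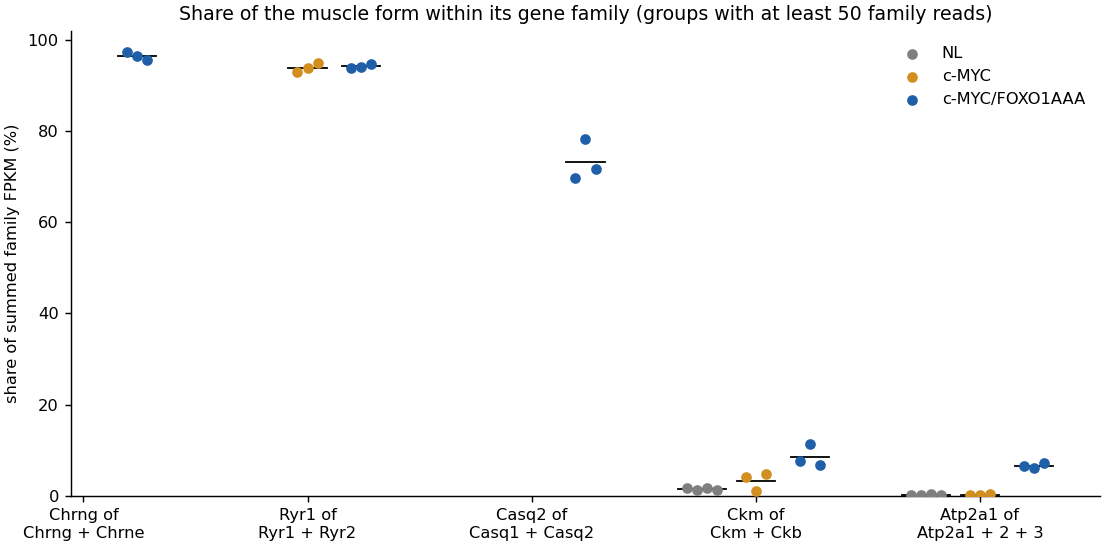
Share (%) of the summed FPKM of a gene family that came from the member named first, by library. Points are libraries, lines are group means, and groups with fewer than 50 reads in the family are left out. In c-MYC/FOXO1AAA, Chrng, Ryr1 and Casq2 dominated their families, while Ckm (8.55%) and Atp2a1 (6.58%) were minor forms. The Ryr1 share in c-MYC is held below 100% by the prior alone, and the Ckm share in NL rests on at most 5 reads of Ckm in a library and is largely the prior.

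Stac3 is the adaptor that couples the voltage sensor to RYR1 and is required for contraction, on chromosome 10 from 127501686 to 127508823. It did not pass the test in any of the 3 comparisons. Stac3 had 11, 4, 6 and 5 reads in NL, 5, 8 and 8 in c-MYC, and 17, 26 and 16 in c-MYC/FOXO1AAA. All 3 FOXO1AAA libraries exceeded those of c-MYC by FPKM but overlapped NL. The log2 fold change was 0.89 ± 0.30 (SE) against c-MYC and did not pass (adjusted p = 0.417, limma). It passed without the fold threshold (adjusted p = 0.0263), and over 21 alternatives the adjusted p ranged from 0.0263 to 1.0.

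The other genes of the voltage sensor and triad were taken as a list. Of 15 genes, 13 were listed and 10 tested, with 6 called higher and 0 lower when FOXO1AAA tumors were set against c-MYC (15.9% and 12.7% of all genes tested). Their median log2 fold change was 3.04, against 0.03 for all genes tested. All 6 met the filter only through the c-MYC/FOXO1AAA libraries. Without the filter, 7 of the 13 were called higher against c-MYC (17.2% of all genes) and 12 of the 13 against NL (31.2% of all genes). Cacng1, the γ subunit of the muscle calcium channel, had 495, 454 and 458 reads against 1 in c-MYC. Trdn, the triadin that ties calsequestrin to RYR1, had 62, 74 and 57 reads and none in the other 7 libraries, at least 48.2-fold above c-MYC. Cacna2d1 rose by a log2 fold change of 4.21 ± 0.39 (SE, adjusted p = 1.65e-05, limma). Cacna1s, the voltage sensor itself, was named after its values were seen. It had 43, 73 and 34 reads in c-MYC/FOXO1AAA, 1 in c-MYC and 0 in NL.

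Among calcium stores and buffers the changes went both ways. Of 17 genes, 14 were listed and 13 tested, with 5 called higher, 1 lower and a median log2 fold change of 1.07 when FOXO1AAA tumors were set against c-MYC. Over all genes tested, 15.9% were called higher and 12.7% lower. Of the 13, 4 (Atp2a3, Sln, Mrln and Casq1) met the filter only through the c-MYC/FOXO1AAA libraries. Sln and Mrln, both inhibitors of SERCA, led the list. Sln (sarcolipin) had 316, 481 and 197 reads and none elsewhere, at least 248-fold above c-MYC. Mrln (myoregulin) had 177, 178 and 227 reads against 2 in c-MYC and 0 in NL. Pln, the cardiac inhibitor, and Pvalb, the fast-fiber calcium buffer, were not listed.

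Ckm, the muscle creatine kinase on chromosome 7 from 19404776 to 19422841, was the mature gene with the highest level in c-MYC tumors. It had 5, 0, 2 and 1 reads in NL and 176, 33 and 226 in c-MYC, so it was above NL in all 3 c-MYC libraries. In c-MYC/FOXO1AAA it had 318, 711 and 202 reads, which overlapped c-MYC. The FPKM was 3.54, 0.682 and 4.53 in c-MYC and 4.75, 8.72 and 3.80 in c-MYC/FOXO1AAA. Ckm rose from NL to c-MYC by 4.51 ± 0.70 on the log2 scale (SE, adjusted p = 0.000394, limma). Between c-MYC/FOXO1AAA and c-MYC the log2 fold change of 1.28 (95% interval -0.37 to 2.94) did not pass (adjusted p = 0.489, limma), and without the low library c-MYC 2 it was 0.43. Of its exonic bases, 15.5% are shared with the antisense gene A930016O22Rik, which had 22, 6 and 17 reads in c-MYC and 11, 18 and 4 in c-MYC/FOXO1AAA.

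**Figure D3:**
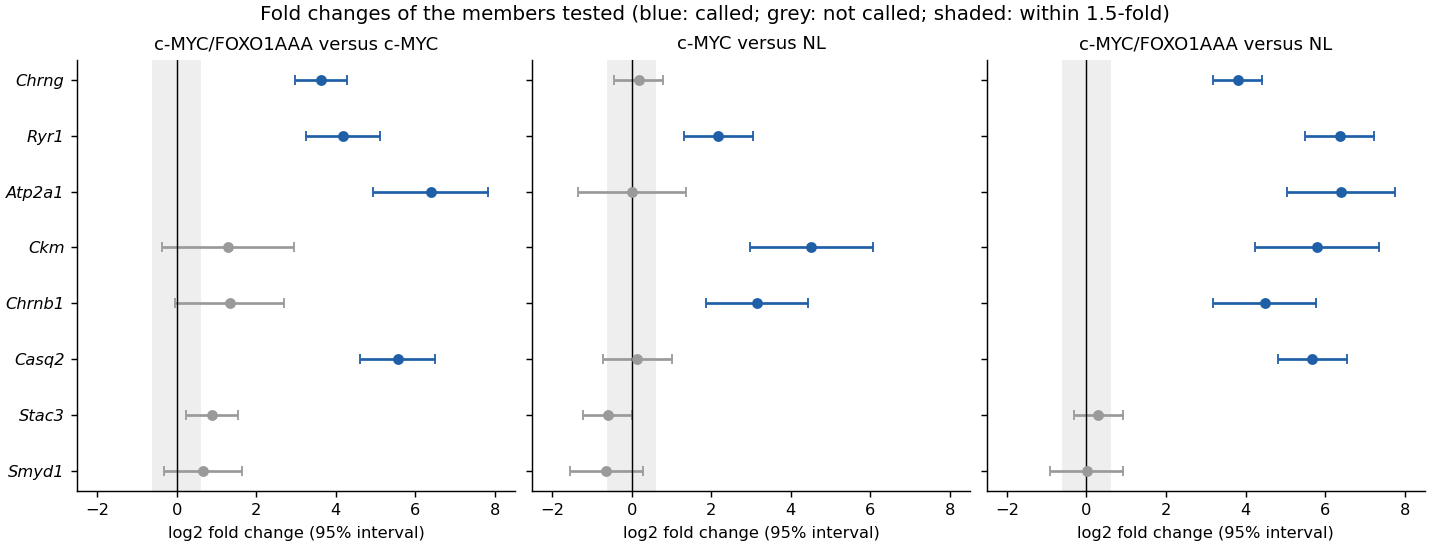
Log2 fold changes of the 8 members tested, with 95% intervals, for each comparison (limma). Blue marks called genes, grey marks genes not called, and the shaded band covers changes within 1.5-fold. Ckm and Chrnb1 were called in c-MYC versus NL but not in c-MYC/FOXO1AAA versus c-MYC, Chrng, Atp2a1 and Casq2 the reverse, and Ryr1 in both.

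Ckb, the brain form of creatine kinase, exceeded Ckm in every library. Its FPKM was 7.56 ± 4.05 (SD, n = 4) in NL. It reached 79.7 ± 16.2 (SD, n = 3) in c-MYC tumors, and 59.6 ± 7.60 (SD, n = 3) when FOXO1AAA was added. The rise from NL to c-MYC passed (log2 fold change 3.53 ± 0.35 SE, adjusted p = 2.11e-05, limma). Ckm made up 8.55% ± 2.51 (SD, n = 3) of both kinases in c-MYC/FOXO1AAA, against 3.25% ± 1.90 (SD, n = 3) in c-MYC tumors. With the longest annotated transcripts as lengths and no prior, the former share was 15.1%. The exact 2-sided permutation p was 0.10, the smallest possible for 3 against 3. In NL, where Ckm had at most 5 reads, a share would largely show the prior and is not compared.

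Creatine synthesis moved in opposite directions at its 2 enzymes. Of 6 creatine and phosphagen genes, 4 were listed and tested, with 1 called higher and 1 lower against c-MYC, beside 15.9% and 12.7% of all genes tested. Gatm, which makes guanidinoacetate, rose from an FPKM of 4.81 ± 0.758 (SD, n = 3) in c-MYC tumors to 148 ± 37.1 (SD, n = 3) with FOXO1AAA (adjusted p = 2.6e-08, limma). Gamt, which methylates it to creatine, fell from 129 ± 20.1 (SD, n = 3) to 34.7 ± 8.27 (SD, n = 3) (adjusted p = 7.45e-05, limma). Gamt was highest in NL at 618 ± 49.1 (SD, n = 4).

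Smyd1, a methyltransferase that assists myosin assembly in heart and skeletal muscle, lies on chromosome 6 from 71213940 to 71322233. It was detected in NL with 68, 58, 60 and 68 reads (FPKM 1.91, 1.90, 1.90 and 2.34). It had 41, 192 and 55 reads in c-MYC and 153, 214 and 123 in c-MYC/FOXO1AAA (FPKM 1.92, 2.21 and 1.94), a level that overlapped NL. The log2 fold change between c-MYC/FOXO1AAA and NL was 0.01 (95% interval -0.91 to 0.93, adjusted p = 1.0, limma). Against c-MYC it was 0.65 (95% interval -0.33 to 1.64, adjusted p = 0.922, limma). One library decided the latter, since without c-MYC 2, which held 192 reads, the log2 fold change was 1.30 and passed (adjusted p = 0.0275), and Smyd1 was then also called lower in c-MYC than in NL (log2 fold change -1.29, adjusted p = 0.0139). The other alternatives left these calls as they were.

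Of 11 genes of the SMYD family and of myosin folding and turnover, all were tested, and FOXO1AAA tumors had 4 called higher and 0 lower against c-MYC, with a median log2 fold change of -0.03. Over all genes tested, 15.9% were called higher. The 4 met the filter only through the c-MYC/FOXO1AAA libraries. The leading genes were Trim55, Trim63 and Unc45b. Trim55 and Trim63 are muscle RING finger ubiquitin ligases, and Unc45b is the muscle myosin chaperone. Trim55 had 459, 373 and 490 reads and none elsewhere, at least 330-fold above c-MYC. Unc45b had an FPKM of 5.39 ± 0.809 (SD, n = 3) against 0.200 ± 0.0969 (SD, n = 3) in c-MYC.

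The other comparisons asked how each tumor group differed from normal liver. In c-MYC versus NL, 3 of 10 members (Ckm, Ryr1 and Chrnb1) were called higher and 0 lower, where 24.5% of all genes were called higher and 23.6% lower, 48.1% in all. In c-MYC/FOXO1AAA versus NL, 6 of 10 members (Chrng, Casq2, Ckm, Ryr1, Atp2a1 and Chrnb1) were called higher and 0 lower, where 31.2% of all genes were called higher and 26.6% lower. Without the filter the latter count was 8 of 10 higher and 0 lower, against 31.2% and 24.6% of all genes. By complete separation of the groups, 6 of the 8 members tested lay above c-MYC in the FOXO1AAA tumors (32.7% of all genes tested), 3 of 8 lay above and 0 below NL in c-MYC tumors (39.0% above and 34.9% below for all genes tested), and 6 of 8 lay above NL in the FOXO1AAA tumors (44.1% of all genes tested). Chrna1 and Chrnd, which were not tested, also lay above both other groups in the FOXO1AAA tumors. Of the 8 tested, 5 (Chrng, Ryr1, Atp2a1, Ckm and Casq2) met the filter only with the c-MYC/FOXO1AAA libraries. Part of their separation and calls in that group was thus built in, and the shares of all genes are no even standard for them. The comparisons share libraries and are not independent. If all libraries are set to the same FPKM total, the split of all calls against NL shifts from 3435 higher and 3305 lower to 7061 higher and 1895 lower for c-MYC, and from 4371 and 3728 to 8129 and 2099 for c-MYC/FOXO1AAA.

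In c-MYC/FOXO1AAA, the members ranked from Chrnb1 (mean FPKM 12.1) through Atp2a1 (6.05), Ckm (5.76), Casq2 (3.89), Chrng (2.17), Smyd1 (2.03), Ryr1 (2.02), Stac3 (1.52) and Chrna1 (1.04) to Chrnd (0.396). The range of Ckm overlapped those of Atp2a1 and Casq2, whereas Atp2a1 lay wholly above Casq2. The ranges of Chrng, Smyd1 and Ryr1 overlapped each other, so their order is not resolved. The FPKM of a gene depends on the transcript length the authors used, which was 777 bases for Chrng, where the longest annotated transcript has 2780, and 600 for Stac3, where it has 1790. With the longest transcripts, Chrng came to 0.565 ± 0.155 (SD, n = 3) and Stac3 to 0.442 ± 0.0517 (SD, n = 3), which put Chrng below Chrna1 at 1.02 ± 0.130 (SD, n = 3). The embryonic receptor genes were on average below the mature genes in each of these 3 libraries. The log2 ratio of the mean FPKM of Chrna1, Chrng and Chrnd to that of Ryr1, Atp2a1 and Ckm was -1.61, -2.23 and -2.0, with a mean of -1.94 ± 0.31 (SD, n = 3), or -2.83 with the longest transcripts. In NL and c-MYC the embryonic genes had 0 and 1 reads in all, so the ratio there is set by the prior and was not compared. Because the mature receptor also holds the subunits of Chrna1 and Chrnd, the ratio does not measure maturity.

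Muscle lists beyond the receptor and calcium genes were also compared between c-MYC/FOXO1AAA and c-MYC, where 15.9% of all genes tested were called higher and 12.7% lower. Of the genes tested, 8 of 10, 5 of 8 and 5 of 7 in the lists that follow met the filter only through the c-MYC/FOXO1AAA libraries. Of 10 myogenic transcription factors tested, 9 were called higher and 0 lower, with a median log2 fold change of 6.29, or 6.89 with the 5 genes that had no read in c-MYC set to their bound from reads. Tbx15 and Myog were among those with the largest changes. Myog (myogenin) had 916, 1572 and 509 reads and none in the other 7 libraries. Of 8 embryonic sarcomere genes tested, 6 were called higher and 1 lower (median 6.97, or 7.57 with 2 genes at their bound), led by Myl4, Actc1 and Myh3. Of 7 adult fast sarcomere genes tested, 6 were called higher and 0 lower (median 5.05), led by Acta1, Tnnt3 and Tnni2. The adult fast myosins themselves stayed low: Myh1 had 39, 2 and 29 reads and Myh4 17, 1 and 11 in c-MYC/FOXO1AAA, and both are named here after their values were seen.

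**Figure D4:**
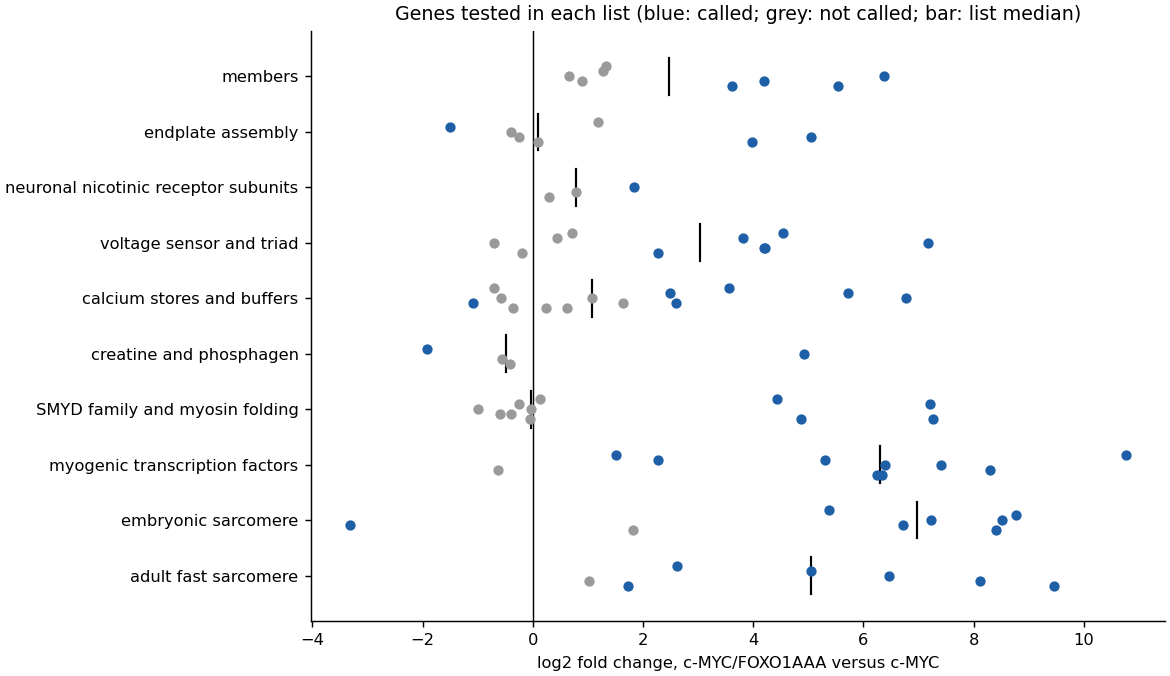
Log2 fold change of each tested gene in c-MYC/FOXO1AAA versus c-MYC, by gene list. Blue points were called, grey points were not, and the bar is the list median. Medians lie at 3.04 for voltage sensor and triad genes and 6.29 for myogenic transcription factors, and at 0.10 for endplate assembly genes.

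Marker lists of other cell types differed in how they compared between the tumor groups. In c-MYC/FOXO1AAA versus c-MYC, 15.9% of all genes tested were called higher and 12.7% lower. The summed FPKM of the 9 listed skeletal fiber markers (of 10, several shared with the sarcomere lists) was 320.0 to 411 in c-MYC/FOXO1AAA, 3.20 to 4.17 in c-MYC and 2.10 to 3.40 in NL. All 9 had reads in c-MYC/FOXO1AAA, although Myh1, Myh4, Mb and Myot had at most 93 reads in any library. Acta1, Tnnt3 and Mylpf carried most of this sum, with a mean FPKM of 110, 160 and 86.0. Of the 9, 4 were tested and called higher against c-MYC, but 3 met the filter only through the c-MYC/FOXO1AAA libraries. Without the filter, 7 of the 9 were called higher and 0 lower (17.2% and 11.6% of all genes). Neb was above c-MYC but overlapped NL (mean FPKM 0.712 and 0.879). Myh4 was not called against either group. Of 6 heart markers only Tnni3 and Ryr2 were listed, with a sum of 0.593 to 1.30. Smooth muscle and stellate cell markers, 7 of 9 listed, summed to 123 to 173 in c-MYC/FOXO1AAA, 5.69 to 16.6 in c-MYC and 23.4 to 27.0 in NL. Acta2 and Des carried most of this sum, with a mean FPKM of 64.6 and 62.7 in c-MYC/FOXO1AAA. Developing skeletal muscle also makes Acta2, and developing and mature skeletal muscle also make Des. Of the 6 tested, 4 were called higher against c-MYC, namely Des, Reln, Acta2 and Pdgfrb. Reln had a log2 fold change of 6.16 (adjusted p = 6.5e-06, limma) and overlapped NL. Pdgfrb had one of 2.56 (adjusted p = 3.5e-05, limma). Lrat (1.64) and the pericyte gene Rgs5 (-1.24) did not pass (adjusted p = 0.128 and 0.179, limma). Myh11 was not tested, and its log2 fold change of -1.1 without the filter was not called. Neuron and Schwann cell markers, 4 of 9 listed, summed to 2.34 to 3.17 in c-MYC/FOXO1AAA, which overlapped 1.17 to 3.03 in c-MYC, and to 6.70 to 8.10 in NL. The 8 macrophage and endothelial markers summed to 62.4 to 90.1 in c-MYC/FOXO1AAA, which overlapped 52.4 to 70.0 in c-MYC, and to 179 to 300 in NL, and of the 8, Cdh5 and Clec4f were called higher against c-MYC and 0 lower. The 8 hepatocyte markers summed to 843 to 1580 in c-MYC/FOXO1AAA, 4970 to 8070 in c-MYC and 74500 to 83200 in NL, and 7 of the 8 were called lower against c-MYC. The part of muscle or other cells in the receptor and calcium results was not tested.

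The genes nearest to the mean profile of the embryonic members over the 10 libraries were Schip1, Gm40841, Rab31, Gm34006 and Smpx, with a root mean square difference of 0.14 to 0.17 on the log2 scale. The embryonic members had 0 reads in NL and 1 in c-MYC, so the prior sets the profile there. Other genes without reads in those groups can thus lie near it. Of the genes named, all but Rab31 had no read in c-MYC. Chrng itself differed from that mean by 0.20, Chrnd by 0.38 and Chrna1 by 0.55. Smpx, a small protein of striated muscle, had a mean FPKM of 3.45 in c-MYC/FOXO1AAA and no read in c-MYC. The genes nearest to the mean of the mature members were Timp1, Jsrp1, Npw, 1110032F04Rik and Arhgef28, at 0.38 to 0.56, while Ryr1, Atp2a1 and Ckm differed from their own mean by 0.49, 1.19 and 1.34. Jsrp1 is a triad protein that binds the voltage sensor, with a mean FPKM of 0.597 in c-MYC tumors against 10.4 after FOXO1AAA.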

How the data were processed

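RNA sequencing was analysed in 10 mouse liver samples, grouped by the titles in the labels. The deposited table holds log2 FPKM. According to the methods, the authors counted reads by Ensembl gene, converted identifiers to symbols and used edgeR; the submitters' processing notes name FastQC 0.11.7 and GRCm38, and the aligner and strandedness are not given in the sources used here. Libraries were prepared by polyA capture or rRNA removal, and the labels do not say which.

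The values carried a prior count that averaged 2.0 reads, which was removed to recover whole reads. A single gene length gave whole reads in all libraries for 16617 of 16697 gene entries (99.52%). The 372 entries without symbol were left out. Libraries held 13123717 to 20547746 reads. Counting intervals and the allowance of 3 reads for a group at 0 cover counting error only.

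Genes that reached an FPKM of 1 in 3 or more libraries were tested on the deposited log2 values in limma 3.58.1 (R 4.3.3), with 1 mean per group over all 10 libraries, treat at 1.5-fold, trend and robust estimation, and Benjamini-Hochberg adjusted p under 0.05. The count model of the study was not used, since log2 FPKM values are no counts. Shares were compared with exact 2-sided permutation tests (scipy 1.17.1). The script was checked on simulated data. From each other list, the 3 called genes with the largest change in c-MYC/FOXO1AAA versus c-MYC were named, as were the paralogues used for shares; 1 named gene is not reported here. Members and lists were chosen with earlier results of these data known. Gene positions are from GENCODE M21 and promoters from RefSeq. Alternatives covered the pseudocount, filter, scaling, fold threshold, fit, reads with voom, the replicate number and each library left out.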

Additional observations from a re-analysis of the deposited data

Results flagged for a closer look

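In the groups of 4 samples, the lowest or highest library was compared with the others by Dixon's test for each member that varied, and 2 of 7 tests stood out. Chance gives about 1 in 20. The library NL 4 had the highest Smyd1 of the normal livers, at an FPKM of 2.34, with the other 3 between 1.90 and 1.91. NL 1 had the lowest Casq2, at 0.0463, which is the value of a gene with 0 reads, while the other 3 had 1 read each.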

How the results depend on the processing

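In c-MYC/FOXO1AAA versus c-MYC, the count of members called was 4, and 2 when a mean FPKM of at least 1 was required, since fewer members were then tested. It was 6 without a filter, 5 without the fold threshold, with the 2 groups alone or with voom on recovered reads, and 4 to 5 when each library was left out. In c-MYC versus NL the count of 3 ranged from 2 to 3 under the planned settings and from 3 to 4 with libraries left out. In c-MYC/FOXO1AAA versus NL the count of 6 ranged from 4 to 8, and was 6 for every library left out. With the replicate number as a block, the counts were 4, 3 and 6. The numbers did not pair the samples (same-number correlations of -0.04 to 0.027 over 9 pairs), and the block changed none of the 3 counts. Over all genes, dropping the fold threshold raised the calls from 4016 to 7688 for c-MYC/FOXO1AAA versus c-MYC and from 6740 to 10432 for c-MYC versus NL.

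Signs turned only in comparisons of members that were not called. In c-MYC versus NL, voom gave log2 fold changes of -0.39 for Chrng, -0.36 for Atp2a1 and -0.22 for Casq2. Atp2a1 was -0.03 at the same median and -0.02 with the replicate block, and ran from -0.61 to 0.57 with libraries left out. Casq2 ran from -0.09 to 0.56 with libraries left out. Setting all libraries to the same FPKM total moved the median of all genes in this comparison from 0.08 to 1.01, and gave 0.33 for Stac3 and 0.28 for Smyd1, both below that shift. In c-MYC/FOXO1AAA versus NL, Smyd1 was -0.12 at the same median and -0.05 to 0.09 with libraries left out. Stac3 passed there at the same FPKM total (log2 fold change 1.39, adjusted p = 0.0105), where the median of all genes was 1.31. The cause was not tested.

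In c-MYC/FOXO1AAA, recovered reads without the prior gave a Chrng share of 100%, also with the longest transcript lengths, which were chosen after seeing the data. With those lengths the Atp2a1 share was 8.97%, the Ckm share 15.1% and the log2 embryonic to mature ratio -2.83. With libraries left out, the shares ranged from 96.1% to 97.0% for Chrng, 6.28% to 6.80% for Atp2a1, 94.1% to 94.4% for Ryr1, 70.7% to 75.0% for Casq2 and 7.12% to 9.46% for Ckm, and the ratio from -2.11 to -1.80. Depth limits Chrnd, Stac3 and Chrne, which had at most 34 reads in any library.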
